A study of Mus musculus with 6 samples.

Results

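Recombination and double-positive stage genes are 9 genes, Rag1, Rag2, Dntt, Arpp21, Aqp11, Cd1d1, Ets2, Mns1 and Tespa1, that thymocytes are known to transcribe while they assemble the T cell receptor α chain and carry both CD4 and CD8. They were chosen by gene symbol in the annotation of the array, which gave 18 of its 45281 probes, and 14 of these 18 were bright enough to test. RNA came from thymic lymphocytes of C57/bl6-129sv mice that were 8 to 12 weeks old. The knockout group was 3 CD4-Cre/Kap1flox mice, in which KAP1 (gene Trim28) is deleted in the T lineage, and the control group was 3 wt/Kap1flox littermates. CD4-Cre is driven by regulatory elements of the Cd4 gene, so deletion is expected from about the double-positive stage and not in the other cells of the thymus. The labels name no sort, and they do not say which control mice carried Cre or how many floxed copies each mouse had.

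Developing T cells build their receptor genes by V(D)J recombination. The RAG1 and RAG2 proteins cut the DNA beside the gene segments, terminal deoxynucleotidyl transferase (Dntt) adds untemplated bases to the ends, and the general end-joining machinery closes the break. In the thymus the Rag genes are used in double-negative cells for the β chain and again in double-positive cells for the α chain, and positive selection then shuts them off. The other 6 genes are also high at the double-positive stage, and their products serve RNA binding, water transport, lipid presentation, transcription, cilia and receptor signalling.

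Signals are given as log2 of the background-corrected signal plus 16 after the arrays were equalized. Detection required a detection p-value below 0.01, and the 14651 probes that reached it on at least 3 arrays were tested, covering 8200 named genes. Mean deposited signals of the arrays lay between 340.1 (control replicate 6) and 678.5 (knockout replicate 1), and 13973 to 15182 probes were detected per array. The Trim28 probe was 3.30-fold lower in the knockout, with log2 signals of 10.83, 11.01 and 10.23 in knockout replicates 1 to 3 and 12.39, 12.25 and 12.59 in control replicates 4 to 6 (limma adjusted p = 0.23), and its position relative to the floxed exons is not known here. All 6 T cell identity genes with a named probe (Cd3d, Cd3e, Cd3g, Cd247, Cd2 and Zap70) passed the detection filter. Cd4 and Cd8b1 did so too, while the probes of Cd8a and Ccr9 were detected on 0 arrays.

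The promoters of 5 genes are shown because the results turn on them. Rag1 and Rag2 are the recombinase pair, which lie close together on chromosome 2 and are transcribed towards each other, Dntt is the third recombination gene, and Ets2 and Mns1 are the genes whose knockout arrays all lay below the controls. Each sequence is the 250 bases before the gene's start in RefSeq, build GRCm38.p6, written 5′ to 3′ on the gene's own strand. Capitals mark matches, on either strand, to CAGNTG (an E-box, the kind of element bound by E proteins), TGTGGT (a Runx element) or AGGTCA (a ROR element).
Rag1, chr2:101649533-101649782, strand -: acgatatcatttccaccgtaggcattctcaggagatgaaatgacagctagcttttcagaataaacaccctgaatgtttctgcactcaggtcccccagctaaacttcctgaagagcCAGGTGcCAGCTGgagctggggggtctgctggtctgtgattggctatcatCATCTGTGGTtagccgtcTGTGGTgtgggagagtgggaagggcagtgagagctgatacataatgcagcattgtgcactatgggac
Rag2, chr2:101624462-101624711, strand +: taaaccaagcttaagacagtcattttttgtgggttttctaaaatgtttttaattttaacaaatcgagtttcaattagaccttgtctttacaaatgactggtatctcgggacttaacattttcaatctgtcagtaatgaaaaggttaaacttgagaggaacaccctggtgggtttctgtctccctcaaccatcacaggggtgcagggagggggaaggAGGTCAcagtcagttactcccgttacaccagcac
Dntt, chr19:41029025-41029274, strand +: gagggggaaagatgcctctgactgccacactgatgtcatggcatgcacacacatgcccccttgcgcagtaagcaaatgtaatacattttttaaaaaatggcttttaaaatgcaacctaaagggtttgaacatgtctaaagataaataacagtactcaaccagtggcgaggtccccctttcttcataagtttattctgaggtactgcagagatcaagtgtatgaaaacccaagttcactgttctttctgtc
Ets2, chr16:95702157-95702406, strand +: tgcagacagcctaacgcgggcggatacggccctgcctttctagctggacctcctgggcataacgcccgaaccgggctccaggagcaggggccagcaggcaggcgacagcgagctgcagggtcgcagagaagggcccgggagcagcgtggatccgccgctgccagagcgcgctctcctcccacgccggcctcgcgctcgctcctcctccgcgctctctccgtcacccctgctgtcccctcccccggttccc
Mns1, chr9:72438279-72438528, strand +: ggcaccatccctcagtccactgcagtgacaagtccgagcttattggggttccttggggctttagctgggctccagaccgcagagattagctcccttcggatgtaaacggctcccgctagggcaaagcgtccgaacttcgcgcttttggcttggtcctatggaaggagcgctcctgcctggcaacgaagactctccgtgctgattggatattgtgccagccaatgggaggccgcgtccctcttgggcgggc

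The Rag1 window held 3 matches to CAGNTG and 2 to TGTGGT, and one of each overlap by 2 bases. The Rag2 window held 1 match to AGGTCA and 0 to the other motifs. The windows of Dntt, Ets2 and Mns1 held 0 matches to any of these letters. Among 32536 distinct RefSeq windows of the same length, 44.8% held CAGNTG, 14.0% held TGTGGT and 14.0% held AGGTCA. A match is a description of the sequence and is not shown to be a binding site. The promoter table held an entry for 7 of the 9 genes. Cd1d1 and Tespa1 had none, and Arpp21 had 9 listed starts. The windows of these starts, not shown, held 0 to 4 matches to CAGNTG, 0 or 1 to TGTGGT and 0 to AGGTCA. The Aqp11 window, also not shown, held 1 match to AGGTCA and 0 to the other motifs.

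The 9 genes as a group were not shown to rise or fall in the knockout. None passed the threshold (0 of 9 at a limma adjusted p under 0.05, against 0.0273% of all tested probes), and 0 of their 14 tested probes had an unadjusted p under 0.05, against 3.54% of all tested probes. By the brightest probe of each gene, 4 genes were higher in the knockout and 5 lower, and the median log2 difference was -0.06 against -0.01 over all 8200 tested genes. In thymus preparations fewer cells of a type and less RNA per cell cannot be told apart, so a lower signal of a double-positive gene can be either. The groups did not overlap for 3 of the 9 genes, with Ets2 and Mns1 lower and Tespa1 higher. Over all tested genes this held for 8% in both directions together, for 3.39% lower and for 4.61% higher in the knockout.

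**Figure D1:**
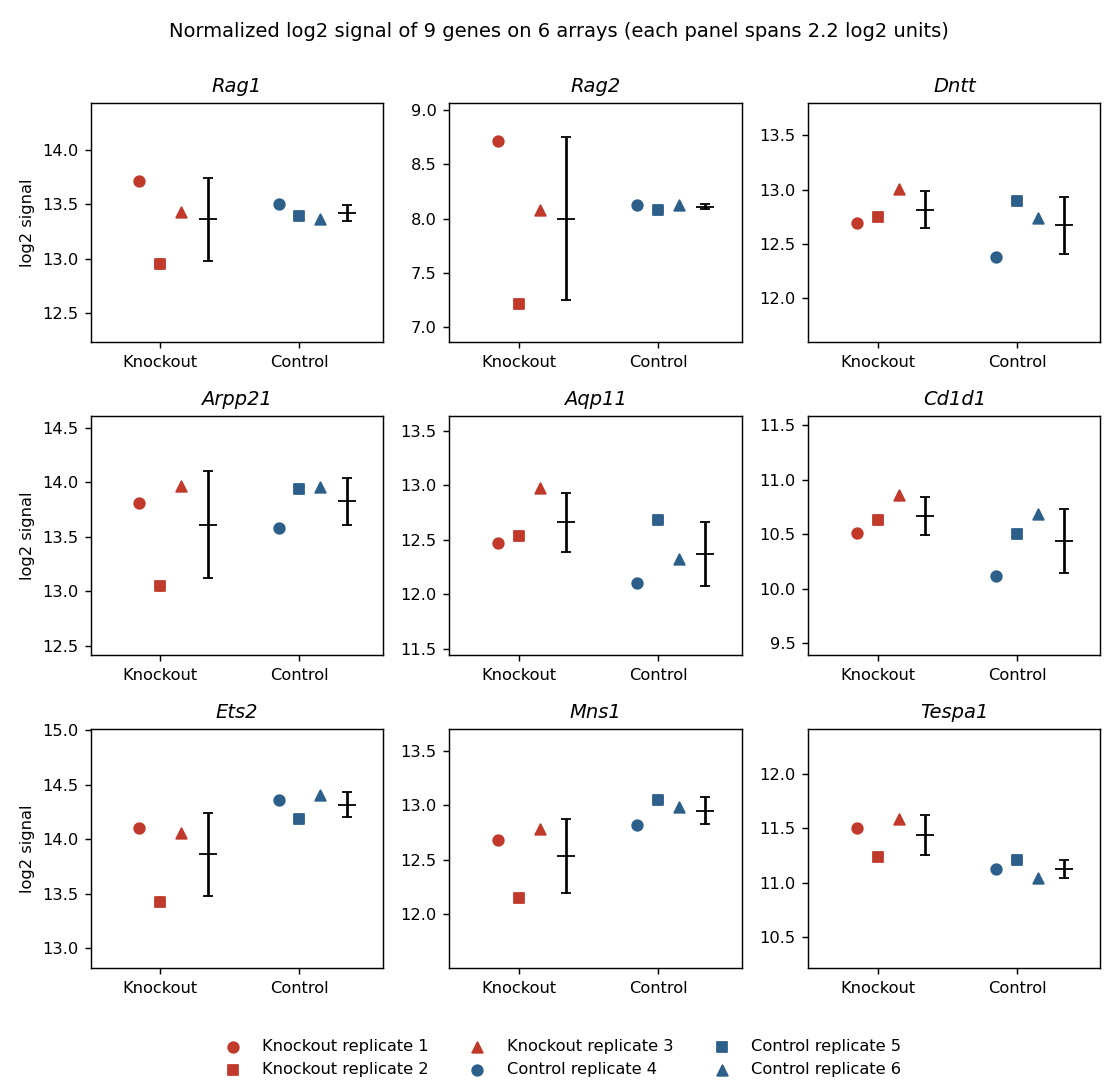
Normalized log2 signal (y axis, 2.2 log2 units in every panel) of the brightest probe of each gene in the 3 knockout arrays (red) and the 3 control arrays (blue), with the group mean and SD as black marks. The Rag1 and Rag2 controls lie close together while their knockout arrays spread, and the Ets2, Mns1 and Tespa1 groups do not overlap.

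Rag1 encodes the subunit of the recombinase that cuts DNA. Its only probe, ILMN_1217622, had log2 signals of 13.71, 12.95 and 13.42 in knockout replicates 1, 2 and 3 and of 13.50, 13.39 and 13.37 in control replicates 4, 5 and 6. The knockout arrays lay on both sides of the controls, with replicate 1 above all of them and replicate 2 below all of them. The log2 difference was -0.06 ± 0.24 (SE, n = 3 per group; limma adjusted p = 0.998). Its 95% interval of -0.61 to 0.50 spans a Rag1 signal 1.53-fold lower to 1.41-fold higher. In the deposited intensities, before the arrays were equalized, Rag1 was at 17682, 8523 and 8519 in the knockout and at 13481, 11365 and 6187 in the controls. The brightest value belonged to the array with the highest mean signal and the dimmest to the array with the lowest.

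Rag2 encodes the partner that RAG1 needs for cutting. Its probe, ILMN_1245983, had log2 signals of 8.71, 7.21 and 8.07 in knockout replicates 1 to 3 and 8.12, 8.08 and 8.12 in control replicates 4 to 6. As for Rag1, knockout replicate 1 was the highest of the 6 arrays and knockout replicate 2 the lowest. The SD was 0.75 among the knockout mice and 0.02 among the controls, and the pooled SD within groups, 0.53, was at the 84.9th percentile of all tested probes, against 0.28 and the 39.7th percentile for Rag1. The log2 difference was -0.11 ± 0.35 (SE, n = 3 per group; limma adjusted p = 0.998), with a 95% interval of -0.91 to 0.70. Without knockout replicate 2 it turned to 0.29 for Rag2 and 0.15 for Rag1, and without knockout replicate 1 it was -0.46 and -0.23. With arrays weighted by their spread it was 0.19 and 0.09, so neither gene has a settled direction in these mice.

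Dntt encodes terminal deoxynucleotidyl transferase. Probe ILMN_1232383 had log2 signals of 12.69, 12.75 and 13.01 in the knockout and 12.39, 12.89 and 12.74 in the controls. The groups overlapped, with control replicate 4 the lowest array and knockout replicate 3 the highest. The log2 difference was 0.14 ± 0.22 (SE, n = 3 per group; 95% interval -0.37 to 0.65; limma adjusted p = 0.998), and it was -0.0006 without control replicate 4, 0.05 without knockout replicate 3 and 0.25 without control replicate 5. Unlike the Rag genes, Dntt was not low in knockout replicate 2, which lay at its mean over the 6 arrays (0.0034 from it on the log2 scale, against -0.44 for Rag1 and -0.84 for Rag2).

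**Figure D2:**
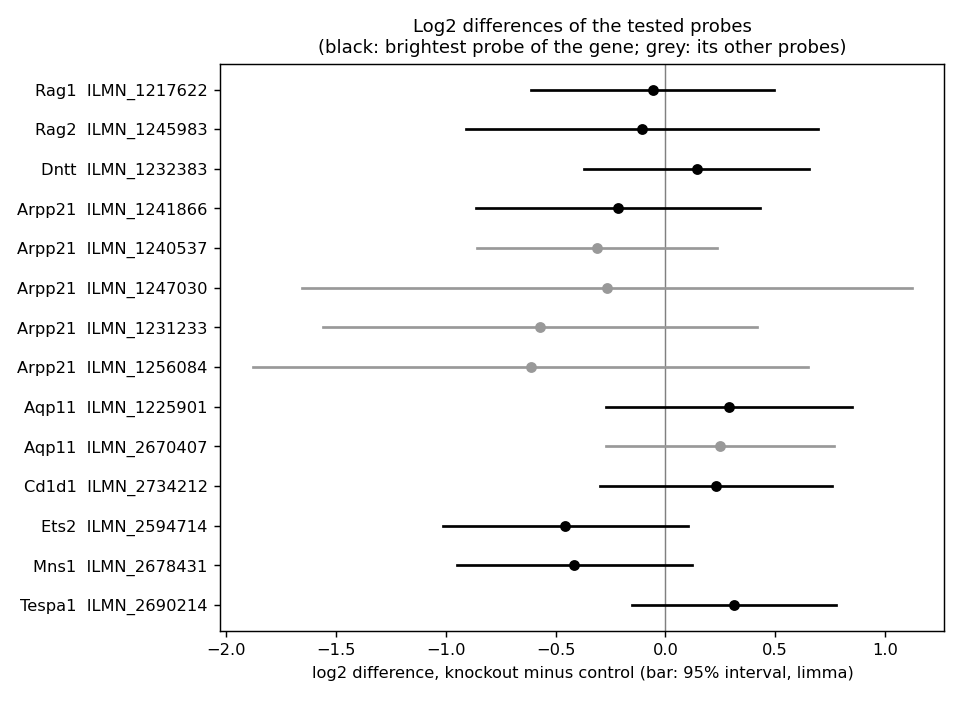
Log2 difference, knockout minus control (x axis), with its 95% interval from limma, for the 14 tested probes of the 9 genes (y axis), the brightest probe of each gene in black and its others in grey. Every interval crosses 0, and the widest belong to the dim Arpp21 probes.

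Ets2 encodes a transcription factor of the ETS family. Its log2 signals on probe ILMN_2594714 were 14.10, 13.42 and 14.06 in the knockout and 14.36, 14.19 and 14.40 in the controls. All 3 knockout arrays lay below all 3 control arrays, by as little as 0.09 between the highest knockout array and the lowest control. The difference of -0.46 ± 0.24 (SE, n = 3 per group), a signal 1.37-fold lower, had the smallest p among the 14 tested probes (unadjusted p = 0.0965, limma adjusted p = 0.998). The 95% interval of -1.01 to 0.10 reaches from 2.02-fold lower to 1.07-fold higher. Without knockout replicate 2 the difference was -0.24, and without any other single array it lay between -0.58 and -0.41.

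Mns1 encodes a structural protein known from meiotic nuclei and from motile cilia and flagella. Probe ILMN_2678431 had log2 signals of 12.68, 12.15 and 12.78 in knockout replicates 1 to 3 and 12.81, 13.05 and 12.98 in control replicates 4 to 6. The groups did not overlap, and the gap between them was 0.04. The log2 difference was -0.41 ± 0.24 (SE, n = 3 per group; 95% interval -0.95 to 0.12; limma adjusted p = 0.998). It was -0.22 without knockout replicate 2 and between -0.54 and -0.36 without any other single array.

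Tespa1 encodes a thymocyte protein that takes part in T cell receptor signalling during positive selection. Its log2 signals on probe ILMN_2690214 were 11.50, 11.23 and 11.58 in the knockout and 11.13, 11.21 and 11.04 in the controls. Every knockout array was above every control, and the gap between the groups was 0.02. The log2 difference was 0.31 ± 0.20 (SE, n = 3 per group; limma adjusted p = 0.998), and the 95% interval ran from -0.15 to 0.78. Its pooled SD within groups was 0.14, at the 7.93rd percentile of all tested probes. Leaving out any 1 array kept the difference between 0.24 and 0.42.

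Aqp11 encodes a water channel of intracellular membranes. Its brighter probe, ILMN_1225901, had log2 signals of 12.47, 12.53 and 12.97 in the knockout and 12.10, 12.68 and 12.32 in the controls. The dimmer probe, ILMN_2670407, had 8.56, 8.10 and 8.26 against 8.14, 8.23 and 7.79. On both probes the groups overlapped, and the log2 differences were close to each other, at 0.29 ± 0.25 and 0.25 ± 0.23 (SE, n = 3 per group; limma adjusted p = 0.998 each). The difference of the brighter probe was 0.13 without knockout replicate 3, 0.16 without control replicate 4 and 0.45 without control replicate 5.

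Cd1d1 encodes the class I-like molecule that presents lipids, and double-positive thymocytes use it to select natural killer T cells. Probe ILMN_2734212 had log2 signals of 10.51, 10.63 and 10.86 in the knockout and 10.11, 10.50 and 10.69 in the controls. The groups overlapped, and the difference was 0.23 ± 0.23 (SE, n = 3 per group; limma adjusted p = 0.998), against 0.07 without control replicate 4, 0.14 without knockout replicate 3 and 0.36 without control replicate 6. A close copy of this gene, Cd1d2, lies in the genome, and the probe is not shown to tell them apart.

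Arpp21 encodes an RNA-binding phosphoprotein found in thymocytes and neurons, and it had 9 probes, more than any other of these genes. Its brightest probe, ILMN_1241866, had log2 signals of 13.81, 13.05 and 13.97 in knockout replicates 1 to 3 and 13.58, 13.94 and 13.96 in control replicates 4 to 6. Knockout replicate 2 was the lowest array, 0.53 below the next, and the groups overlapped. The log2 difference was -0.21 ± 0.28 (SE, n = 3 per group; limma adjusted p = 0.998), and it was 0.07 without knockout replicate 2 but further below 0 when knockout replicate 3 (-0.39) or control replicate 4 (-0.34) was left out. The mean over its 5 tested probes, dim ones included, was -0.40. The next probe, ILMN_1240537, had 11.14, 10.51 and 11.13 against 11.23, 11.34 and 11.14, with knockout replicate 2 again the lowest.

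On the log2 scale the dimmest tested Arpp21 probes, ILMN_1247030, ILMN_1231233 and ILMN_1256084, followed another division of the arrays. ILMN_1240537 and the probes that were not tested did not. The file gives each array a number in a second header line without saying what it counts, and by these numbers the arrays form 3 neighbouring pairs of 1 knockout and 1 control, with knockout replicate 3 and control replicate 6 far from the other 4 arrays. Probe ILMN_1247030 had log2 signals of 9.22 and 9.20 in those 2 arrays and of 7.05 to 7.81 in the other 4. Its pooled SD within groups, 1.04, was at the 98.6th percentile. Of the 5 tested Arpp21 probes, 4 had both arrays above all others, against 13.6% of all tested probes. In ILMN_1241866 the margin was only 0.02. These probes measure 1 gene and are not independent. Knockout replicate 3 and control replicate 6 also had the lowest mean deposited signals, 427.1 and 340.1. In deposited intensities ILMN_1241866 was at 11788 and 8886 there, against 19242 in knockout replicate 1. ILMN_1231233 was at 167.9 in control replicate 6 and 179.9 in control replicate 5. By these intensities only ILMN_1247030 and ILMN_1256084 kept both arrays above all others. The 5 tested probes differed between genotypes by -0.61 to -0.21 on the log2 scale, and none passed the threshold. The lowest differences came from the dimmest of them. ILMN_1256084, detected on 4 arrays, was at -0.61 ± 0.55 with log2 signals of 4.71 to 7.22. ILMN_1231233, detected on 5 arrays, was at -0.57 ± 0.43 with log2 signals of 5.24 to 6.99 (SE, n = 3 per group). The other 4 Arpp21 probes were not tested. Of these, 3 were detected on 0 arrays and ILMN_2555562 on 0 knockout and 2 control arrays.

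**Figure D3:**
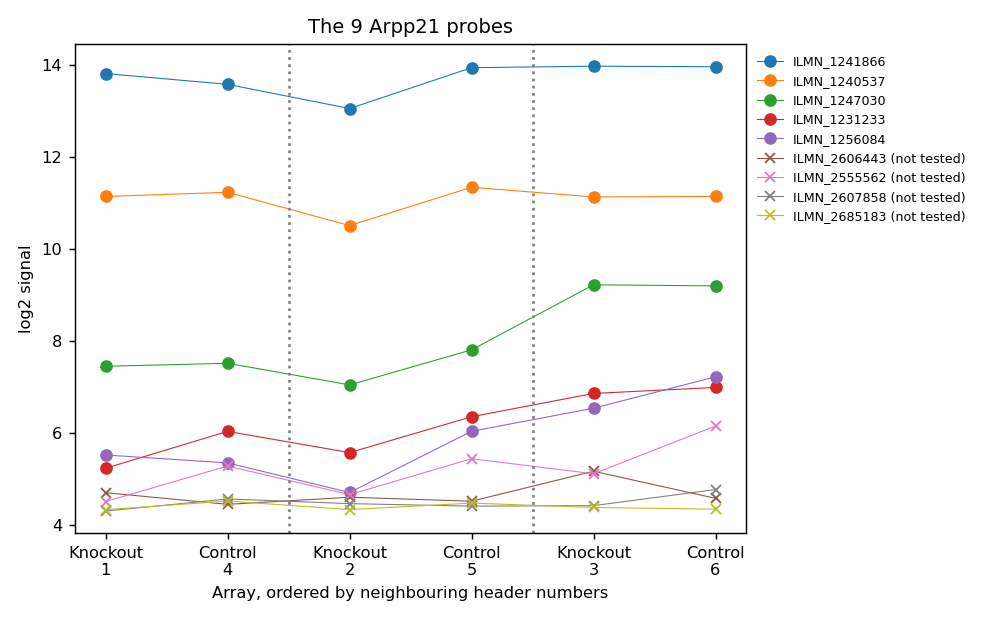
Log2 signal (y axis) of the 9 Arpp21 probes on the 6 arrays (x axis, in the order of the numbers in the second header line, with dotted lines between neighbouring pairs), where circles are tested probes and crosses probes that were not tested. The 2 brightest probes dip in knockout replicate 2, while ILMN_1247030 stands higher in knockout replicate 3 and control replicate 6, at 9.22 and 9.20.

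Within the neighbouring pairs (knockout replicate 1 with control 4, 2 with 5, and 3 with 6) the recombination genes had no common direction. Rag1 differed by 0.21, -0.44 and 0.06 and Rag2 by 0.59, -0.87 and -0.05, so both changed sign between pairs. Dntt differed by 0.30, -0.15 and 0.27, Aqp11 by 0.37, -0.15 and 0.65, and Arpp21 by 0.23, -0.89 and 0.01. Ets2 was lower in every pair, by -0.26, -0.76 and -0.34, as was Mns1, by -0.14, -0.90 and -0.20. Tespa1 was higher in every pair, by 0.37, 0.02 and 0.54, which follows for these 3 genes from groups that do not overlap. Cd1d1 was also higher in every pair, by 0.40, 0.13 and 0.17, although its groups overlap. The share of all tested genes with the same sign in every pair was not computed, so no result about Cd1d1 is read from this.

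Across the arrays the 9 genes divided by which mouse was low. Rag1, Rag2, Arpp21, Ets2 and Mns1 were lowest in knockout replicate 2, which is 5 of 9 genes, against 29.1% of all tested genes that were lowest there. Dntt, Aqp11 and Cd1d1 were lowest in control replicate 4, which held the lowest value of 10.01% of all tested genes. Dntt, Arpp21, Aqp11, Cd1d1 and Tespa1 were highest in knockout replicate 3, against 17.9% of all tested genes. As a measure of likeness, each gene was centred on its own mean but not scaled. The root mean square difference over the 6 arrays was then taken. By it the closest pairs among the 9 were Dntt with Aqp11 and Dntt with Cd1d1, both at 0.11 on the log2 scale, and Ets2 with Mns1 at 0.13, while Rag1 and Rag2 were 0.22 apart and Rag2 and Aqp11 0.54.

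**Figure D4:**
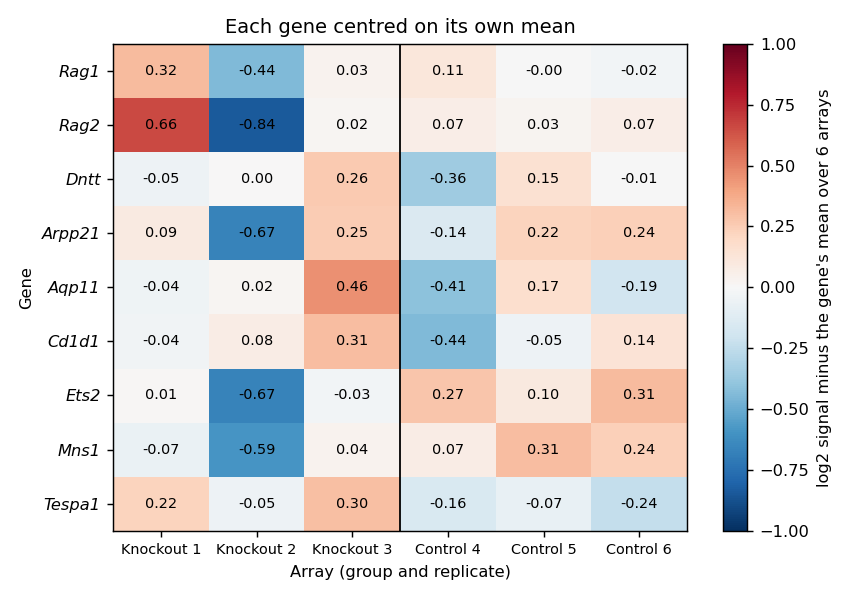
Log2 signal minus the gene's mean over the 6 arrays (colour and printed number) for the 9 genes (rows) on the 3 knockout and 3 control arrays (columns). Knockout replicate 2 is the lowest array for Rag1, Rag2, Arpp21, Ets2 and Mns1, at -0.44 to -0.84, but not for Dntt, Aqp11, Cd1d1 or Tespa1.

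Knockout replicate 2 also stood apart in other genes. Sums here are of background-corrected signals after the arrays were equalized, not on the log2 scale, so the brightest genes weigh most. The sum of transcription factors known to act on the Rag locus (10 tested) was 49517 there, against 71832 to 85199 on the other 5 arrays. Satb1, Ets1, Bcl11b and Ikzf1 were the brightest. Foxo1 and Tcf12 were lowest in control replicate 5, and the other tested factors in knockout replicate 2. Low sums on that array were not limited to these factors. It was also lowest for V(D)J joining factors (19251 against 24084 to 26931) and other double-positive genes (53554 against 57180 to 61697). The same held for double-negative genes (2179 against 2517 to 2853) and for erythroid and stromal markers. For genes induced at positive selection control replicate 5 was lower (16744 against 17996). Dendritic cell and MHC class II markers summed to 13849 in knockout replicate 2, 7598 and 8766 in the other knockout arrays and 4294 to 5574 in the controls. Of these 7 tested markers 6 were higher in the knockout and 0 passed the threshold. The unadjusted p was under 0.05 for 6 of the 7, against 3.54% of all tested probes, and the groups did not overlap for 6, against 8% of all tested genes. The defining dendritic cell markers Itgax and Flt3 were detected on 0 arrays. So was Cd8a, a gene of double-positive cells, so here and below non-detection does not show that a transcript was absent. Both tested B cell markers (Blk and Cd79b) were higher, with sums of 727 to 1254 against 522 to 758, and Ms4a1, Pax5 and Cd22 were detected on 0 arrays. All 4 tested macrophage markers were higher, at 704 to 1559 against 488 to 977, with Adgre1 and Mertk detected on 0 arrays. All 6 tested mature single-positive genes were higher too, with sums of 1830 to 3272 against 1353 to 2047. Among them were Ly6c1, a surface marker gene, at 1.01 ± 0.38, the chemokine receptor gene Ccr7 at 1.14 ± 0.45 and the transcription factor gene Klf2 at 0.67 ± 0.32 (SE, n = 3 per group; limma adjusted p = 0.998 each). S1pr1 and Ms4a4b of the same list were detected on 0 arrays. In each of these 4 lists (dendritic cell and MHC class II, B cell, macrophage, mature single-positive) knockout replicate 2 had the highest sum. Of all tested genes, 26.6% were highest on that array and 29.1% lowest, so it was often extreme in both directions. The part of the cells of these 4 lists in the low Rag1, Rag2, Arpp21, Ets2 and Mns1 signals of that mouse was not tested.

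**Figure D5:**
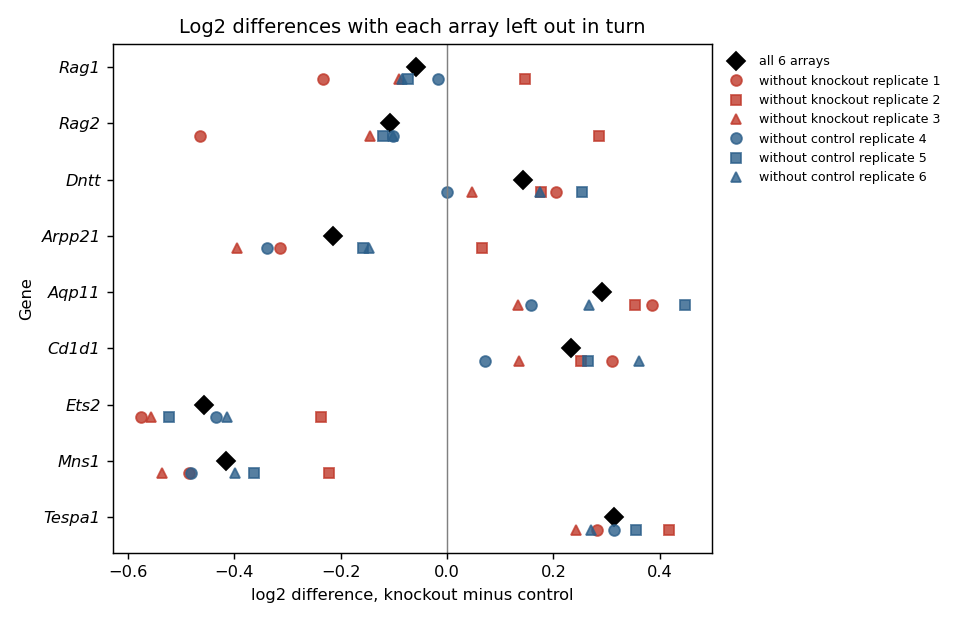
Log2 difference, knockout minus control (x axis), of the 9 genes (y axis) with all 6 arrays (black diamonds) and with each array left out in turn (coloured marks). Leaving out knockout replicate 2 moves Rag1, Rag2 and Arpp21 across 0, to 0.15, 0.29 and 0.07, and brings Ets2 and Mns1 to -0.24 and -0.22.

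The other factors of V(D)J joining showed no common shift. Of 8 tested genes 4 were higher and 4 lower, 0 passed the threshold, and the median log2 difference was -0.03. Those with the smallest p were Prkdc, the catalytic subunit of the DNA-dependent protein kinase, at -0.22 ± 0.28, the damage kinase gene Atm at -0.19 ± 0.25, and Hmgb2, a DNA-bending protein that assists RAG, at -0.21 ± 0.30 (SE, n = 3 per group; limma adjusted p = 0.998 each). Lig4, the ligase of end joining, was at 0.01 ± 0.21. Hmgb1, Xrcc5 and Xrcc4 were detected on 0 arrays, and Xrcc6 was at -0.07 ± 0.22.

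Of the 10 tested transcription factors known to act on the Rag locus, 8 were lower and 2 higher, with a median of -0.15, and 0 passed the threshold. Myb, which encodes a transcription factor of thymocyte progenitors and double-positive cells, had log2 signals of 7.49, 7.28 and 8.36 in the knockout and 8.39, 8.75 and 8.88 in the controls. The groups did not overlap, and the log2 difference was -0.96 ± 0.31 (SE, n = 3 per group; unadjusted p = 0.0135, limma adjusted p = 0.998). Its neighbours in that list were the E protein gene Tcf3 at -0.27 ± 0.29 and Gata3 at -0.19 ± 0.20. Foxo1, which is known to activate Rag transcription in B cells, was at 0.10 ± 0.21.

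Other genes of double-positive thymocytes were lower for 6 of 9, with a median of -0.11, and 0 passed. The coreceptor gene Cd4 was at -0.29 ± 0.27, Plxnd1, a receptor gene of thymocyte migration, at -0.22 ± 0.30, and Bcl2l1, which encodes the survival protein Bcl-xL, at 0.16 ± 0.23 (SE, n = 3 per group; limma adjusted p = 0.998 each). Cd8b1 was among the 6 brightest probes on every array and the 4th brightest on each control array. Equalizing by quantiles gives it a value fixed by its rank there, so no difference is read from it. The counts and the median of this list still include Cd8b1, as a higher gene. Of all tested genes 47.9% were higher in the knockout. All 13 tested cell cycle genes were lower, with a median of -0.47, and 0 passed. They had their lowest sum in knockout replicate 3, at 18414 against 28917 and 29911 in the other knockout arrays and 33586 to 39071 in the controls. Knockout replicate 3 was not the lowest array for any of the 9 recombination and double-positive stage genes.

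The genes nearest in profile to Rag1, Rag2 and Dntt lay outside these lists. They were picked for the smallest differences, and the difference of a typical gene was not computed. Their closeness is therefore no result in itself. For Rag1 the nearest of 8199 other genes were Tmem131l, Arf3 and Vps13b, at a root mean square difference of 0.03 on the log2 scale over the 6 arrays for each. For Rag2 they were Purg at 0.06, Usf3 at 0.07 and Pdcd6ip at 0.09. For Dntt they were Slc25a30 at 0.04, Dcp1b at 0.06 and Rab11fip5 at 0.06. Some of these genes were dim, with log2 signals of 5.20 to 6.76 for Purg, 5.66 to 6.24 for Slc25a30 and 5.44 to 5.98 for Rab11fip5. Rag2 was not among the 3 genes nearest to Rag1, nor Rag1 among those nearest to Rag2. The measure does not scale the values, so it sets apart genes of like shape and unlike spread. Both Rag genes were highest in knockout replicate 1 and lowest in knockout replicate 2. From their own means these arrays lay at 0.32 and -0.44 for Rag1 and at 0.66 and -0.84 for Rag2.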

How the data were processed

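RNA of thymic lymphocytes (100 ng per sample) was measured on Illumina bead arrays, 1 per mouse. Per the file headers, the main table gives each probe an intensity that was not normalized between arrays, beside a detection p-value. BeadStudio 3.1.3 is the software named by the submitters' processing notes, with settings not given in the sources. The authors' own processed intensity values ranked the probes of each array as its signals did (Spearman coefficient 1) and served as an alternative.

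In limma 3.58.1 (R 4.3.3), neqc corrected the background from the detection p-values, quantile-normalized the arrays and returned log2 of the signal plus 16, which understates changes of dim probes. Knockout was compared with control by lmFit and eBayes over 14651 probes, two-sided, with Benjamini-Hochberg adjustment and a threshold of 0.05. The number of arrays limits precision, and the median standard error was 0.26. A gene was represented by its brightest tested probe. Symbols came from the array annotation, updated through GRCm38.p6 for 34807 probes. Probe sequences were not used here.

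All 9 genes are named, with Trim28, up to 3 genes of each list with the smallest p, and the 3 nearest profiles of Rag1, Rag2 and Dntt; Lig4, Xrcc6, Foxo1, Cd8b1 and Ptcra were named for their roles after their values were seen. The genes and lists were chosen with earlier results of these data known. Alternatives were another normalization, background, offset, filter, prior, array weights, blocks, probe choice and arrays left out.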

Additional observations from a re-analysis of the deposited data

How the results depend on the processing

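Over 11 alternatives and 6 left-out arrays, 147 of 153 differences of the 9 genes kept their direction. As in the main comparison, 0 passed the threshold where it was applied, and the mean over probes was not tested. A change of prior, of filter or to a header block leaves every difference unchanged by construction. The mean over probes does so for genes with 1 tested probe. The same direction under these alternatives therefore adds no support. The 6 that turned were Rag1 (0.0924) and Rag2 (0.19) with array weights, and Rag1, Rag2, Arpp21 and Dntt with 1 array left out, where they ranged from -0.23 to 0.15, from -0.46 to 0.29, from -0.39 to 0.0655 and from -0.0006 to 0.25. The cause of the turns was not tested. Array weights also moved Dntt to 0.05, Arpp21 to -0.11, Aqp11 to 0.15 and Ets2 to -0.27, Rag2 was -0.05 with no background correction, and Arpp21 was -0.40 with the mean of its probes. The median of the 9 genes, -0.06, ranged from -0.23 to 0.18 with arrays left out, and it was 0.0924 with array weights. The count of genes whose groups do not overlap, recomputed after seeing the data, was 3 under each alternative, where 7.96% to 8.01% of all genes did so. The filter, prior and array weights leave the signals unchanged, so this count could not move with them. With 1 array left out it was 3 or 4, where fewer arrays raise that share to between 14.1% and 22.1%. At an unadjusted p under 0.05, 1 of the 9 genes passed under 3 alternatives, Ets2 with no background correction (2.87% of all probes) and with a prior that follows intensity and is robust to outliers (3.06%), and Tespa1 with no filter on dim probes (3.92%). Over all probes the count past the threshold, 4, was 2 with no background correction, 1 with no filter on dim probes, 2 with the header pairs as a replicate block and 0 to 1 with an array left out, while it was 5 with an offset of 1 and with the robust prior, and 6 in the authors' processed table. The labels share no replicate number between the groups, so the pairs rest on the header numbers alone, and that block changed no call among the 9 genes.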

Other observations

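Genes of the stages before and after were measured on the same arrays. Of 8 tested double-negative thymocyte genes 5 were higher in the knockout and 3 lower, with a median log2 difference of 0.12. Those with the smallest p were the receptor gene Notch3 at -0.34 ± 0.31, Cd44 at 0.25 ± 0.23 and Notch1 at -0.19 ± 0.22 (SE, n = 3 per group; limma adjusted p = 0.998 each). Ptcra, the partner of the β chain in the pre-T cell receptor, was at 0.29 ± 0.38. Of 7 tested genes induced at positive selection 6 were higher, with a median of 0.11. Among them were Cd69, an early activation marker, at 0.33 ± 0.23, and the transcription factor genes Egr1 at 0.21 ± 0.24 and Id3 at 0.26 ± 0.31. Cd5 and Nr4a1 of that list were detected on 0 arrays. Of 6 tested neutrophil markers 6 were lower, with a median of -0.42 and sums of 836 to 3009 in the knockout against 1585 to 4189 in the controls. The erythroid gene Hba-a1 differed by -0.14 ± 0.69, and both tested stromal genes, Pecam1 and Krt8, were higher, with a median of 0.17. No gene of these lists passed the threshold. Of the 8 stromal and epithelial symbols 6, among them Epcam, Foxn1 and Psmb11, were detected on 0 arrays.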
